A study of Mus musculus with 6 samples.

Results

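The PRDM genes encode zinc finger proteins that also carry a PR domain, a relative of the SET domain of histone methyltransferases. Prdm16, Mecom, Prdm1, Prdm2, Prdm4, Prdm8, Prdm10, Prdm12 and Prdm15 were taken by symbol and mapped to Ensembl gene IDs with GENCODE M21. All 9 members were found among the 49315 genes of the count table, and 9 of 9 passed the filter on low counts, which left 18079 genes to test. Mouse embryos of embryonic day 14 were dissected for the medial ganglionic eminence (MGE), a ventral forebrain zone where many cortical interneurons are born, and its RNA was sequenced. The WT group carried Nkx2.1-Cre, Prdm16+/+ and Ai14, and the group labelled KO carried Nkx2.1-Cre, Prdm16fl/fl and Ai14, so Cre and the Ai14 reporter were common to both. Each group had 3 libraries, and each library was 1 pool of 3 embryos (6 eminences). Nkx2.1-Cre recombines in the Nkx2-1 lineage, so other cells of the dissected tissue, such as vessels and microglia, would keep an unrecombined floxed allele. The comparison asks how transcript levels in the MGE differ between Prdm16fl/fl and Prdm16+/+ embryos, with Cre acting in the Nkx2-1 lineage of both.

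PRDM proteins act mostly as regulators of transcription that bind DNA through their zinc fingers and recruit corepressors and chromatin enzymes. PRDM16 and MECOM (also called PRDM3 or MDS1-EVI1) are the closest paralogs of the family. PRDM16 is known from brown fat, blood stem cells and the radial glia of the developing forebrain, and MECOM from blood stem cells and leukaemia.

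Total counts ran from 33188277 to 55552298 per library. The MGE markers Nkx2-1 and Lhx6 were well counted in both groups, which matches the MGE label. Nkx2-1 stood at 646.8 ± 29.4 CPM (read counts per library size, after TMM scaling, as mean ± SD, n = 3) in WT and 769 ± 118 CPM in the KO pools, and Lhx6 at 652 ± 31.2 and 503 ± 26.6 CPM. Lhx6 was lower in the KO pools (edgeR adjusted p = 0.00627), and Nkx2-1 did not pass 0.05 (edgeR adjusted p = 0.112). Of 12 listed MGE genes 4 were lower and 2 higher, to be read beside the shares over all genes given below. The library KO 1 stood apart on the second principal component (16.1% of the variance, score -35.0 against 11.6 and 12.4 in the other KO pools). It also had Xist at 1.92 CPM against 721 to 1424 CPM in the other 5 libraries. Of all genes tested, 20.2% differed between the groups at an edgeR adjusted p under 0.05, 9.72% being higher and 10.5% lower in the KO pools. That share was 41.5% without KO 1 and 6.4% to 10.8% without any other single library. In 39.9% of genes the CPM values of the groups did not overlap. The labels describe each library as a separate pool, so p-values reflect the spread between pools.

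Of the 9 members, Mecom was higher in the KO pools, Prdm2 was slightly lower, and 7 did not pass. Mecom rose 2.83-fold, while Prdm16, the gene named by the floxed allele, differed between the groups by less than the spread of its libraries. The 2 calls among 9 members stand beside 20.2% over all genes, a share that itself ran from 6.4% (without WT 3) to 41.5% (without KO 1). In 3 of 9 members the groups did not overlap (Mecom higher, Prdm2 and Prdm15 lower), against 39.9% of all genes (20.3% with KO higher and 19.6% with KO lower), so both shares are close to or below the background. The median log2 fold change was 0.02 over the members and -0.00 over all genes tested.

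The promoters of Prdm16 and Mecom are shown first because these paralogs are the members on which the comparison turns. Windows from 250 bases before to 50 bases after a transcription start were taken from RefSeq on GRCm38.p6, and 8 of 9 members had an entry (Prdm2 had none). Mecom has 2 listed starts, 496.6 kb apart, and the upstream one begins the long form that holds the PR domain. Capitals mark the longest stretch shared by the Prdm16 window (chr4:154636824-154637123, minus strand) and the upstream Mecom window (chr3:30509710-30510009, minus strand). The downstream Mecom window (chr3:30013155-30013454, minus strand) has no such stretch.
Prdm16: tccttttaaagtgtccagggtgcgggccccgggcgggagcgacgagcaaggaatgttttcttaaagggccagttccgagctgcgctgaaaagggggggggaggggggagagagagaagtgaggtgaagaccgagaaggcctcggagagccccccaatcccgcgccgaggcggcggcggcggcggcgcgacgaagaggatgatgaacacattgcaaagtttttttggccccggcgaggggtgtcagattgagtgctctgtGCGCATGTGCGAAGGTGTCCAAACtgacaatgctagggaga
Mecom, upstream start: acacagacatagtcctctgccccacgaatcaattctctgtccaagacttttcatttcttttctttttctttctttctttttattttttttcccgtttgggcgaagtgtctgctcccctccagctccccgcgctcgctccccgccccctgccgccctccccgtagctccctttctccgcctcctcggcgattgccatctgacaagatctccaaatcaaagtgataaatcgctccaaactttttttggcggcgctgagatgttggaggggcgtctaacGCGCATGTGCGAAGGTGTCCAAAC
Mecom, downstream start: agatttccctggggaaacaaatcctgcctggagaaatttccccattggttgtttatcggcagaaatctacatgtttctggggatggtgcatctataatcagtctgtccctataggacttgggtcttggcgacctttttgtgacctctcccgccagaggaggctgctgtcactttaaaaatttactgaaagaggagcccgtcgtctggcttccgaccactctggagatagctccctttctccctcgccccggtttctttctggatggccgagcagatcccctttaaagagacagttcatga

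The shared stretch is 24 bases long and was an exact match on the same strand. It lies after the start in both genes, from base 9 to 32 in Prdm16 and from base 26 to 49 in Mecom, where it reaches the end of the window and could continue beyond it. GENCODE M21 places it in an exon of 8 Prdm16 transcripts and 3 Mecom transcripts, and in no coding sequence. Of 32851 windows of the same length searched on both strands, 2 held it, these being the Prdm16 and Mecom windows. In the other 61 pairs of windows from different members the longest shared stretch was 7 to 11 bases. The counts are per gene and do not show which start was used.

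Of short motifs sought on both strands, overlaps between different motifs being allowed, 1 of 5 was present. The GC box, GGGCGG, occurred 1 time in the Prdm16 window and 2 times in the upstream Mecom window, and 35.7% of all windows held it. None of the other 4 motifs was in any of the 3 windows. These were the RBPJ letters of the Notch pathway (GTGGGAA, held by 6.38% of all windows) and the E-box of proneural factors (CAGCTG, held by 16.3%). The core of NKX2-1 sites (CAAGTG, held by 13.6%) and the TATA box (TATAAA, held by 13.6%) were the others. CpG dinucleotides numbered 24 in the Prdm16 window, 19 in the upstream and 9 in the downstream Mecom window, against a median of 7 over all windows. Such matches describe the letters only.

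Prdm16 (ENSMUSG00000039410, chromosome 4, 154316125 to 154636873, GRCm38) encodes the zinc finger regulator that the floxed allele targets. Reads numbered 2572 (WT 1), 1574 (WT 2) and 1743 (WT 3), and 2376 (KO 1), 1870 (KO 2) and 2527 (KO 3). Scaled for depth, the WT pools had 55.8, 47.0 and 45.4 CPM and the KO pools 53.6, 51.3 and 45.8 CPM. The groups overlapped throughout, the highest value being WT 1 and the lowest WT 3. The fold of KO over WT was 1.02 with a 95% interval of 0.884 to 1.17 (log2 fold change 0.02, SE 0.09, edgeR adjusted p = 0.884). The sources used here do not say which exons Cre removes, so a count over the whole gene may not check the KO label, and every direction given here rests on that label.

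Prdm16 is known to be expressed in radial glia, the progenitors of the ventricular zone, and most markers of these cells rose. Of 12 listed radial glia genes 9 were higher in the KO pools and 1 was lower, beside 9.72% and 10.5% of all genes. Their median log2 fold change was 0.64, and their summed level went from 2348 to 2469 CPM in the WT pools to 3251 to 3737 CPM in the KO pools. Sox9, a progenitor transcription factor gene, stood at 80.3 ± 1.68 CPM in WT but 124 ± 6.14 CPM in the KO pools (edgeR adjusted p = 0.00021), and Nes, which encodes nestin, went from 430.0 ± 34.7 to 683 ± 20.3 CPM (edgeR adjusted p = 0.00047). Slc1a3 was the lower gene, going from 63.9 ± 3.08 to 40.7 ± 5.51 CPM (edgeR adjusted p = 0.00201). Hopx and Ptprz1 did not pass (folds 1.02 and 1.04). In bulk tissue, more cells of a type and more RNA per cell cannot be told apart.

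Mecom (ENSMUSG00000027684, chromosome 3, 29951296 to 30548008, GRCm38) is the member that rose. Reads numbered 108, 104 and 121 in the WT pools (1 to 3) and 356, 298 and 444 in the KO pools (1 to 3). These correspond to 2.34, 3.11 and 3.16 CPM in WT and to 8.03, 8.18 and 8.05 CPM in the KO pools. Every KO pool lay above every WT pool, and the 3 KO values were nearly equal, with a coefficient of variation of 0.996% where counting alone would give about 5.28%. The difference was 2.83-fold with a 95% interval of 2.30 to 3.48 (log2 fold change 1.502, SE 0.13, edgeR adjusted p = 0.00021). By size of the log2 fold change Mecom was at percentile 98.6 of all genes tested. The call was kept in all 16 alternatives run, with log2 fold changes from 1.37 to 1.58.

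**Figure D1:**
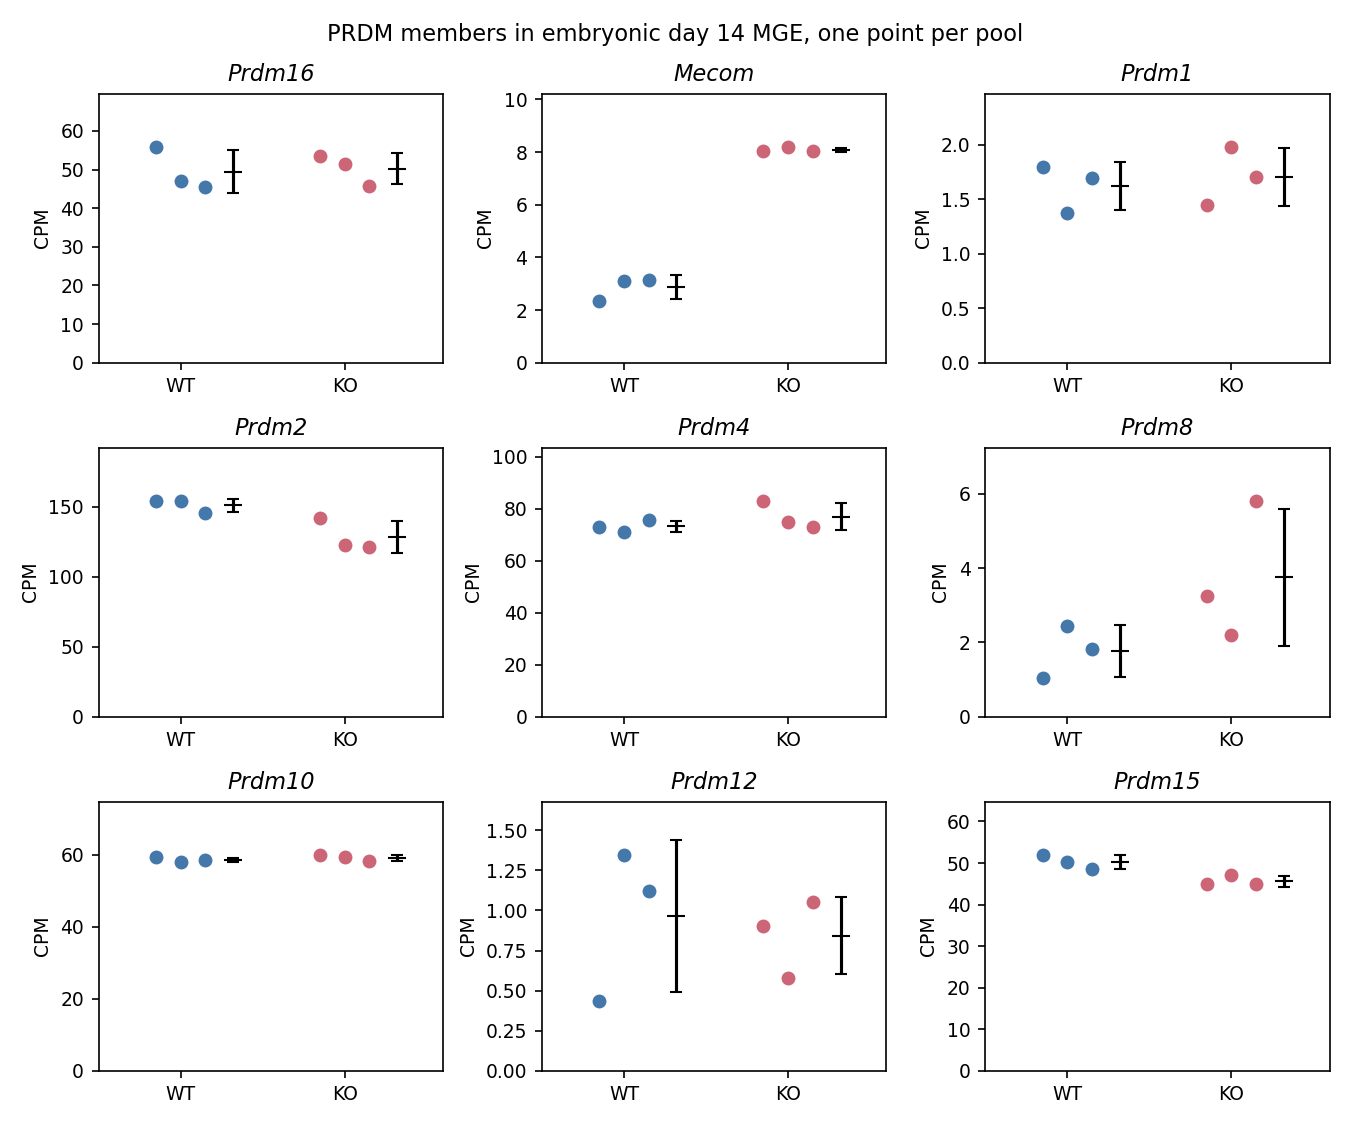
CPM (vertical axes, from 0, a separate scale for each gene) of the 9 members in the WT (blue) and KO (red) pools, with 1 point per pool and the mean ± SD in black. Mecom is the member whose KO points, near 8 CPM, stand far above the WT points, while Prdm16 is spread over the same range in both groups.

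Relative to its paralog, Mecom remained the lesser transcript. Per exonic length, Mecom reads amounted to 3.15%, 4.96% and 5.21% of those of Prdm16 in the WT pools and to 11.2%, 11.95% and 13.2% in the KO pools. The ratio is taken within a library and does not depend on scaling between libraries. It did not overlap between the groups, and its log2 value differed by 1.48 (exact two-sided permutation test over pools, p = 0.1, which is the minimum for 3 against 3). The gene models lying within Mecom introns had at most 9 counts in any library, and its antisense partner Mecomos had 0 counts in each.

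**Figure D2:**
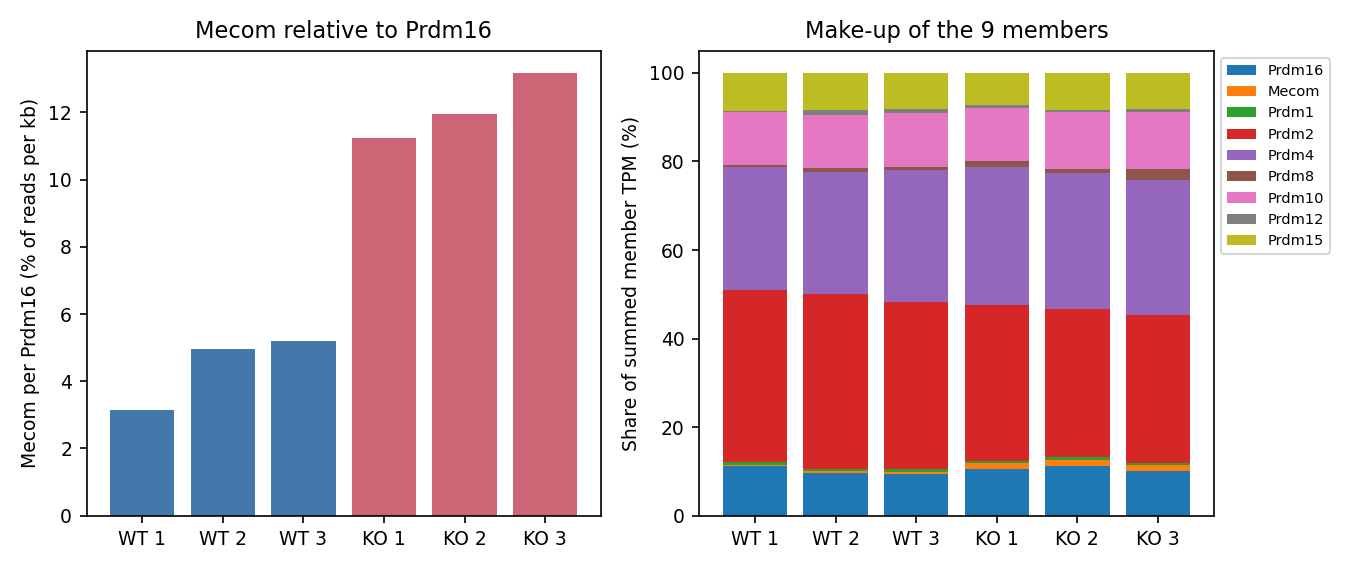
Left, Mecom reads as a percentage of Prdm16 reads per kb of exon in each library (bars from 0), with 3.15% to 5.21% in WT (blue) and 11.2% to 13.2% in KO (red). Right, the share of each member in the summed TPM of the 9 members, in which Prdm2 and Prdm4 take the most and Mecom is a thin band of 0.352% to 1.33%.

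MECOM is known from vascular endothelium as well as from blood, so markers of these cells were measured beside it. Of 10 brain endothelial genes 0 were higher and 2 lower, beside 20.2% called over all genes, and the summed level was 215 to 218 CPM in WT and 169 to 197 CPM in the KO pools. Cldn5, a tight junction gene, stood at 48.3 ± 1.79 CPM in WT but 29.9 ± 2.21 CPM in the KO pools (edgeR adjusted p = 0.000387). Without KO 1, 2 of these 10 genes were higher and 7 lower, in a fit that called 41.5% of all genes. Emcn (fold 1.35, edgeR adjusted p = 0.153) and Egfl7 (fold 1.16, edgeR adjusted p = 0.0945) had higher means in the KO pools and did not pass. Of 10 red blood cell genes 6 were higher, and their sum went from 376 to 441 CPM in WT to 909 to 1480 CPM in the KO pools. Most listed radial glia genes moved with Mecom too, as given above. Pericyte markers (6 of 8 lower, 0 higher, and 1 or 2 lower when any library but KO 1 was left out) summed to 222 to 235 CPM in WT and 185 to 250.2 CPM in the KO pools. Notch3 had the most CPM in that sum. Its mean went the other way and did not pass (100.2 ± 5.63 to 119.9 ± 18.0 CPM, edgeR adjusted p = 0.0847). Microglia markers (3 of 9 lower, 0 higher, and 1 lower when any library but KO 1 was left out) summed to 40.6 to 44.3 and 30.9 to 36.3 CPM. The fits that left out a library other than KO 1 called 6.4% to 10.8% of all genes. Choroid plexus and cortical hem markers, of which 1 of 6 tested was higher, summed to 18.5 to 18.9 and 32.8 to 43.3 CPM. Most of that difference was Otx2, a forebrain and midbrain patterning gene also expressed outside the choroid plexus, which rose from 12.04 ± 1.27 to 31.6 ± 3.88 CPM (edgeR adjusted p = 0.000111). The other 5 tested did not pass, and the choroid plexus gene Ttr was at 0.117 ± 0.106 CPM in WT and 0.0604 ± 0.0428 CPM in the KO pools. The part of vessels, red cells or progenitors in the Mecom value was not tested.

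Prdm2 (ENSMUSG00000057637, chromosome 4, 143107391 to 143212995), known as RIZ, encodes a nuclear methyltransferase and was the most abundant member. It lies 11.1 Mb from Prdm16 on the same chromosome. The WT pools had 154, 154 and 146 CPM and the KO pools 142, 123 and 121 CPM. All KO pools were below all WT pools, with KO 1 nearest to WT. The level was 1.18-fold lower (95% interval 1.06 to 1.31, log2 fold change -0.23, SE 0.07, edgeR adjusted p = 0.0405). The call was lost without WT 1 (edgeR adjusted p = 0.113), WT 2 (0.142), WT 3 (0.0896), KO 2 (0.154) or KO 3 (0.141), and was stronger without KO 1 (log2 fold change -0.31, edgeR adjusted p = 0.00018). The direction was the same in all of these fits.

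Prdm15, a regulator of pluripotency and early patterning signals, showed a shift of like direction that did not pass. It had 51.9, 50.2 and 48.6 CPM in WT and 44.9, 47.2 and 44.8 CPM in the KO pools. The groups did not overlap, and the level was 1.10-fold lower with a 95% interval of 1.01 to 1.20 (edgeR adjusted p = 0.109). Over 16 alternatives its log2 fold change ran from -0.16 to -0.11, and none called it.

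Prdm4 and Prdm10 were well counted, and neither passed the test. Prdm4 encodes a factor known to work with an arginine methyltransferase in neural stem cells. It had 73.1, 71.2 and 75.4 CPM in WT and 82.8, 74.7 and 73.0 CPM in the KO pools, and the groups overlapped (fold 1.05, 95% interval 0.953 to 1.16, edgeR adjusted p = 0.453). Prdm10, which encodes a zinc finger regulator of transcription, was the steadiest member. It had 59.3, 58.1 and 58.4 CPM in WT and 59.8, 59.3 and 58.2 CPM in the KO pools, with coefficients of variation of 1.04% and 1.40%. Its fold was 1.01 with a 95% interval of 0.932 to 1.09 (edgeR adjusted p = 0.886).

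Prdm1 (BLIMP1), a repressor known from plasma cells, germ cells and photoreceptor precursors, was at a low level. Counts were 83, 46 and 65 in WT and 64, 72 and 94 in the KO pools, or 1.80, 1.37 and 1.69 CPM against 1.44, 1.98 and 1.70 CPM. The groups overlapped, and the spread within each (13.7% in WT, 15.6% in KO) was near the 12.7% and 11.5% that counting alone gives. The fold was 1.04 with a 95% interval of 0.786 to 1.38 (edgeR adjusted p = 0.841), so a change of moderate size was not detectable at this depth.

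Prdm8 and Prdm12, both known from neurons outside the MGE, were the members with the widest spread between pools. PRDM8 works with BHLHE22 in cortical and other projection neurons. Prdm8 counts were 48, 82 and 70 in WT and 144, 80 and 320 in the KO pools, or 1.04, 2.45 and 1.83 CPM against 3.25, 2.20 and 5.80 CPM. KO 3 was the highest library and KO 2 lay below WT 2, so the groups overlapped. The fold of 2.18 had a 95% interval of 1.14 to 4.18 (log2 fold change 1.13, SE 0.41, edgeR adjusted p = 0.0873). DESeq2, an alternative, called it (log2 fold change 1.10, adjusted p = 0.0106), and without KO 3 the edgeR log2 fold change was 0.66 (adjusted p = 0.227). An antisense gene, A730035I17Rik, shares 29.1% of the Prdm8 exonic length and had 2, 5 and 8 counts in WT and 15, 13 and 19 in the KO pools. The sources used here do not state a strand setting, so reads of these 2 genes cannot be told apart in the shared part.

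Markers of cortical excitatory neurons, which lie outside the MGE, were summed beside Prdm8. Their summed level over 10 genes was 29.8, 64.2 and 52.9 CPM in the WT pools and 85.9, 65.5 and 114 CPM in the KO pools. Within each group the pools stood in the same order as for Prdm8, with WT 1 lowest and WT 2 highest, and KO 2 lowest and KO 3 highest. The share of all genes with that order was not counted, so the match has no background to be set against. Bhlhe22, the partner of PRDM8 and one of those 10 genes, had 1.78, 4.60 and 3.29 CPM in WT and 6.39, 3.57 and 9.66 CPM in the KO pools, again in that order (edgeR adjusted p = 0.13). Of the list 4 genes were higher and 0 lower, with Emx1 going from 0.504 ± 0.34 to 1.49 ± 0.0986 CPM (edgeR adjusted p = 0.0142) and Tbr1 from 23.8 ± 6.41 to 40.7 ± 4.36 CPM (edgeR adjusted p = 0.0279). Emx1 in the KO pools (1.38, 1.56 and 1.52 CPM) was not in that order, but its spread there (6.63%) was below the 12.3% of counting alone. The count of 4 higher genes became 0 without WT 3, 1 without WT 1 or KO 3, 2 without WT 2 or KO 1 and 3 without KO 2. Over all genes the share called was 41.5% without KO 1 and 6.4% to 10.8% in the other fits. The part of neighbouring tissue in the Prdm8 value was not tested.

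Prdm12, a gene known from sensory neurons and from hypothalamic neurons that express Pomc, did not pass the test. Counts were 20, 45 and 43 in WT and 40, 21 and 58 in the KO pools, or 0.434, 1.34 and 1.12 CPM against 0.903, 0.576 and 1.05 CPM. The lowest library was WT 1 and the highest WT 2, and the spread within groups (49.1% in WT, 28.8% in KO) was above the 17.5% and 16.9% of counting alone. The fold was 0.913 with a 95% interval of 0.506 to 1.65 (edgeR adjusted p = 0.835), so changes within that interval could not be seen with this spread. Its order of pools within each group was that of Prdm8, and also that of the summed diencephalic and hypothalamic markers, with 119, 152 and 136 CPM in WT and 231, 199 and 307 CPM in the KO pools. Otp (8.11, 42.9 and 29.6 CPM in WT and 60.7, 25.0 and 99.8 CPM in the KO pools) had this order and the widest range of CPM on that list. It is a hypothalamic transcription factor gene that did not pass the test (edgeR adjusted p = 0.366). Lhx2, with the highest mean on the list, was not in this order (85.2, 71.3 and 73.0 CPM in WT and 99.9, 108 and 123 CPM in the KO pools). Nor were Lhx9 in the KO pools (20.4, 17.3 and 18.8 CPM) and Gbx2 in the KO pools (22.5, 30.4 and 28.7 CPM). The order of the sum was thus not shared by all listed markers, and the share of all genes with this order was not counted. Between the groups the listed markers differed, since 6 of 11 tested were higher and 0 lower, beside 9.72% and 10.5% of all genes. Among the higher ones were Lhx9 (5.92 ± 0.79 to 18.8 ± 1.53 CPM, edgeR adjusted p = 4.75e-05) and Gbx2 (12.8 ± 0.448 to 27.2 ± 4.18 CPM, edgeR adjusted p = 0.000399). Pomc itself went from 2.34 ± 0.37 to 3.44 ± 0.508 CPM (edgeR adjusted p = 0.0428). Its WT pools (1.95, 2.39 and 2.69 CPM) were not in the order of Prdm12. The antisense gene Gm13425 shares 8.09% of the Prdm12 exonic length and had 7 to 38 counts per library, and the sources used here do not state a strand setting, so reads of the 2 genes cannot be told apart there.

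**Figure D3:**
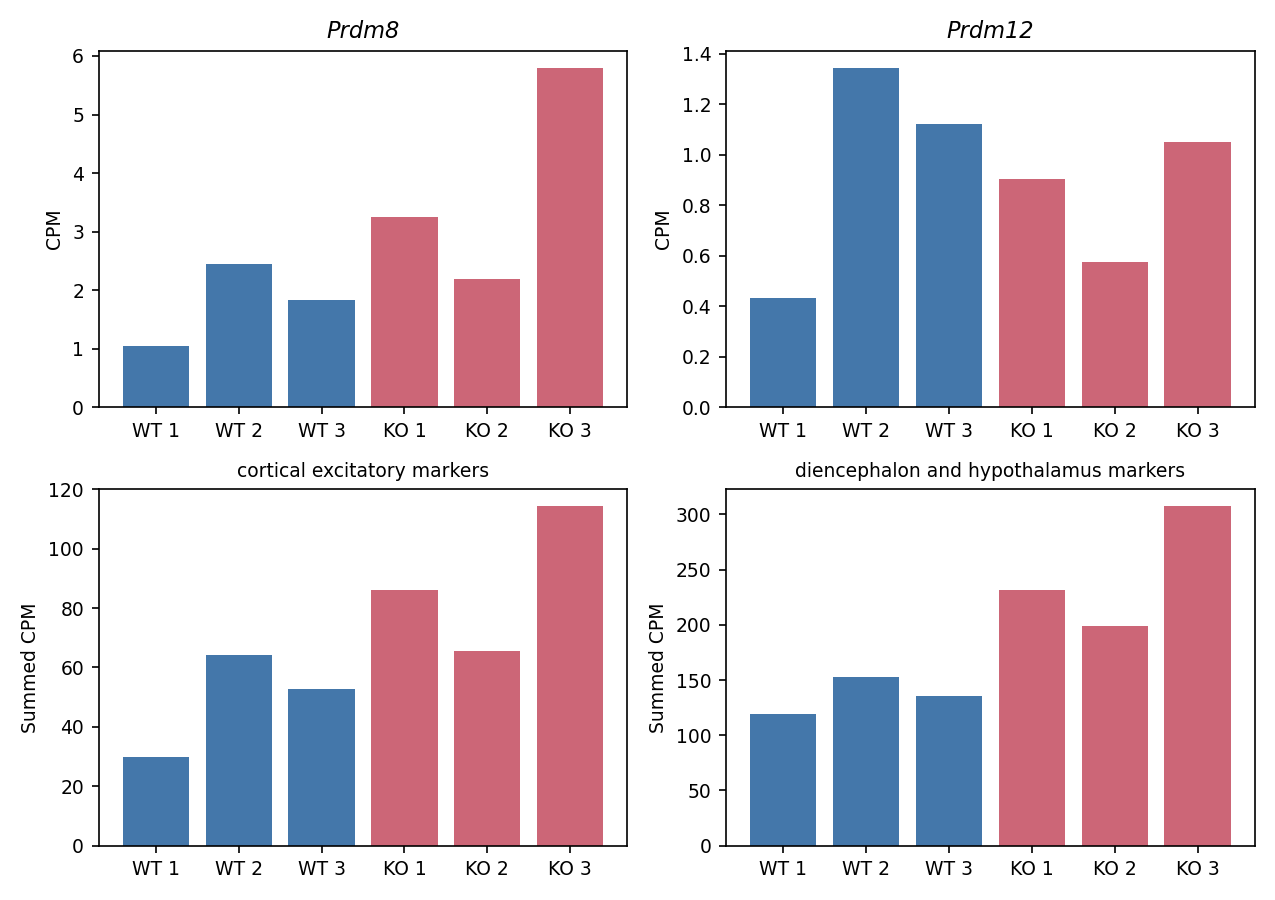
Upper panels, CPM of Prdm8 and Prdm12 in each library, and lower panels, the summed CPM of cortical excitatory and of diencephalic and hypothalamic markers (bars from 0, WT blue, KO red). In each group the lowest and the highest pool are the same in all 4 panels, WT 1 and WT 2, and KO 2 and KO 3. Among the diencephalic and hypothalamic markers Otp has this order, while Lhx2, Lhx9, Gbx2 and Pomc do not. The share of all genes with this order was not counted.

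Per exonic length, the members fell into 2 ranges. TPM divides counts by exonic length before scaling each library to the same total, so these levels can be compared between genes. In WT, Prdm2 had 79.9 ± 2.99 TPM, Prdm4 58.5 ± 1.26, Prdm10 24.8 ± 0.177, Prdm16 20.8 ± 2.23 and Prdm15 17.4 ± 0.57 TPM, and the libraries of each lay wholly above those of the next. Prdm12 (1.54 ± 0.766 TPM), Prdm8 (1.44 ± 0.586), Prdm1 (1.14 ± 0.144) and Mecom (0.906 ± 0.149) followed, and the libraries of neighbours in this lower range overlapped. In the KO pools the first 5 kept their order, with Prdm2 (63.7 ± 8.13 TPM) and Prdm4 (57.5 ± 6.12 TPM) now overlapping. Mecom moved from the last place to the seventh at 2.39 ± 0.0838 TPM, with each of its values in the KO pools above those of Prdm12 and Prdm1 there. The summed level of the 9 members was 208, 209 and 202 TPM in WT and 207, 179.6 and 174 TPM in the KO pools, a difference of -19.5 TPM (exact two-sided permutation p = 0.2, where 0.1 is the smallest possible). Without Prdm2 the difference was -3.28 TPM (exact two-sided permutation p = 0.6). Prdm1, Prdm4, Prdm10 and Prdm16 had slightly lower mean TPM but slightly higher mean CPM in the KO pools. The sign of a difference this small in the sum can thus depend on the scale. Mecom made up 0.439 ± 0.0756% of the summed members in WT and 1.28 ± 0.0757% in the KO pools.

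Other PRDM genes and the PRDM-like genes Zfpm1 and Zfpm2 were a list of 7, of which 5 were tested, 2 rose and 0 fell. Over all genes 9.72% were higher and 10.5% lower. Prdm13, which specifies neurons of the spinal cord and retina and is also found in the hypothalamus, had 7.57, 8.36 and 6.47 CPM in WT and 12.1, 10.95 and 14.6 CPM in the KO pools. All KO pools were above all WT pools, and the rise was 1.69-fold (95% interval 1.37 to 2.08, edgeR adjusted p = 0.0064). Prdm9, which marks recombination sites in germ cells, had 5.29, 4.87 and 5.40 CPM in WT and 6.996, 6.78 and 7.03 CPM in the KO pools and rose 1.34-fold (95% interval 1.14 to 1.56, edgeR adjusted p = 0.0211). Zfpm1 (fold 1.26, edgeR adjusted p = 0.0636), Prdm11 (fold 0.826, edgeR adjusted p = 0.0506) and Zfpm2 (fold 0.944, edgeR adjusted p = 0.744) did not pass. Prdm6 and Prdm14 were not tested, with 0 to 2 and 0 to 3 counts per library, at or under 3 counts, the limit that a count of 0 allows. The median log2 fold change of the 5 tested was 0.34. The count of 2 higher genes became 1 without WT 1, WT 2, WT 3, KO 2 or KO 3, and 3 higher and 1 lower without KO 1. The share called over all genes was 41.5% without KO 1 and 6.4% to 10.8% in the other fits.

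**Figure D4:**
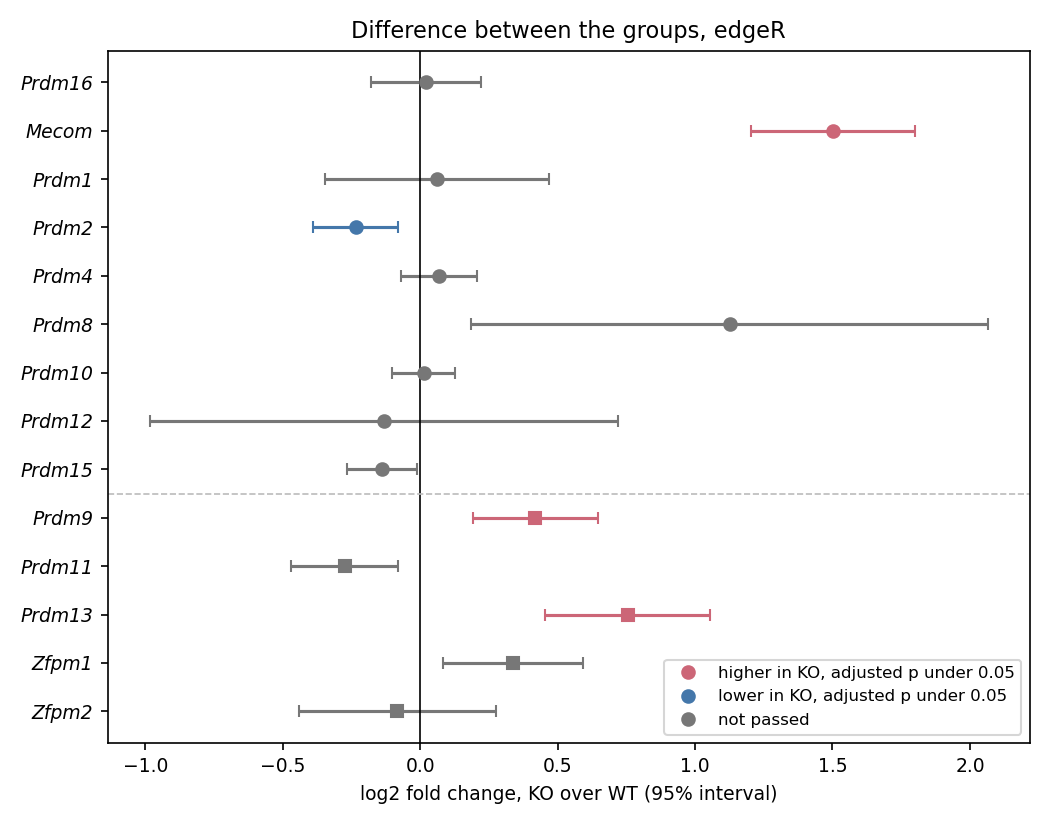
Log2 fold change of KO over WT with its 95% interval from edgeR for the 9 members (circles) and the 5 tested other PRDM and Zfpm genes (squares), with genes past an adjusted p of 0.05 in red (higher) or blue (lower). Mecom at 1.502 and Prdm13 at 0.75 lie clear of 0, Prdm16 lies on it at 0.02, and Prdm8 and Prdm12 have the widest intervals.

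Genes for partners and cofactors of PRDM proteins were a list of 20, of which 19 were tested, 4 were higher and 2 lower (median log2 fold change 0.13). Smad3, which encodes a signal transducer of TGF-beta, went from 29.8 ± 1.14 to 42.5 ± 1.17 CPM (edgeR adjusted p = 0.000895). Ppargc1a, a coactivator gene known to act with PRDM16 in brown fat, went from 13.1 ± 2.05 to 7.16 ± 1.01 CPM (edgeR adjusted p = 0.00419). The counts were 1 higher and 1 lower without WT 1 or WT 3, 2 and 1 without WT 2 or KO 3, 3 and 1 without KO 2, and 10 and 3 without KO 1. Over all genes the share called was 20.2% with every library, 6.4% to 10.8% in the first 5 of these fits and 41.5% without KO 1.

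Genes whose levels over the 6 libraries were most like those of Prdm16 and Mecom were taken from 10989 candidates with a mean of at least 5 CPM, by Pearson's r of log2 CPM. For Prdm16 they were Wdr26 (r = 0.979), Fkbp5 (r = 0.976) and Tent2 (r = 0.976), none of which differed between the groups at the threshold (edgeR adjusted p from 0.859 to 0.985). For Mecom they were Aagab (r = 0.998), Tgds (r = 0.995) and Rtca (r = 0.995), each higher in the KO pools. Aagab, for example, had 48.7, 51.6 and 50.8 CPM in WT and 61.1, 61.2 and 61.1 CPM in the KO pools. An r over 0.95 was reached by 234 candidates (2.13%) for Mecom and by 14 (0.127%) for Prdm16. All these values share the 6 libraries and their depths, and for Mecom they also follow the split into groups.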

How the data were processed

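RNA was extracted from pooled MGE tissue, and the input here is the table of raw counts per Ensembl gene that the authors deposited. The submitters' processing notes name GRCm38, DESeq2, featureCounts, Subread 1.5.2, STAR 2.5.2b and Trimmomatic 0.36. Neither strand setting nor annotation release is stated in the sources used here. A deposited table of scaled counts was not used, because 2 of its columns share a name. Symbols and exonic lengths came from GENCODE M21 (49056 of 49315 IDs matched).

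After filterByExpr (count of at least 10, total of at least 15), an unpaired quasi-likelihood fit with robust spread and TMM factors was made in edgeR 4.0.16 (R 4.3.3), with Benjamini-Hochberg adjustment over 18079 genes at 0.05. Intervals of a fold are 95% intervals from the log2 fold change and its standard error. The procedure was tested on simulated data. DESeq2 1.42.0, limma 3.58.1 (voom), other scalings and filters, a replicate block and each library left out were alternatives. Named genes were the members, the other PRDM genes, up to 2 genes per list by smallest p, and the 3 genes most like Prdm16 and Mecom. Bhlhe22, Pomc, Nkx2-1, Lhx6, Ttr, Otp, Lhx2, Emcn, Egfl7, Slc1a3, Hopx, Ptprz1, Notch3, Xist and the antisense genes do not come from it. They were picked with their values known, as was the stretch shared by 2 promoters. A further PRDM gene is not reported here. Members and lists were chosen with earlier results of these data known. Same-numbered WT and KO libraries did not deviate together (r = -0.08, -0.12 and 0.03), so the numbers were not taken to pair the pools.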

Additional observations from a re-analysis of the deposited data

How the results depend on the processing

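Of 232 pairs of a result and an alternative, 189 kept the main outcome. For a fold change that means the same direction and side of the threshold. For a number of genes or members called it means a count near the main one, and for the ratio and the sum a difference within the spread. Mecom was called in all 16 alternatives. Fits without 1 library called between 464 and 3752 genes higher, between 727 and 3804 lower, and 0 to 1 member lower. Over those fits, log2 fold changes ran from -0.034 to 0.13 for Prdm16 and from -0.046 to 0.17 for Prdm1. They ran from -0.31 to -0.19 for Prdm2 and from -0.51 to 0.17 for Prdm12, whose value was 0.019 with limma voom. DESeq2 called 2 members higher, adding Prdm8 (1.10). The replicate block gave 862 higher and 1219 lower genes and 0 members lower, with Prdm2 at -0.24 (edgeR adjusted p = 0.0548). The block changed no other member's call, and the cause was not tested. A threshold of 0.01 gave 360 higher and 583 lower genes and 0 members lower, and 1 of 0.1 gave 2732 higher genes and 2 members higher, by construction. The summed members differed by -3.28 TPM without Prdm2, which removes the member with the most TPM. Depth limits Prdm1, whose spread within groups was near that of counting alone.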
